A study of Mus musculus with 4 samples.

Results

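The water channel gene Aqp4 and 8 genes whose proteins form, or sit beside, its anchoring complex at the glial cell membrane were followed in mouse glial progenitors with and without the RNA-binding protein Quaking. The 9 genes were taken by symbol from 35857 genes listed: Aqp4 itself, the dystrophin complex genes Dag1, Dmd, Dtna, Sntb1 and Utrn, the paired membrane protein genes Mlc1 and Hepacam, and the calcium channel gene Trpv4. All 9 were found. The set was chosen by name with the TPM of Qk_KO and control in these same libraries in view, so the differences of the 9 genes between the groups are a description and carry no test of their own. The cells were neural stem cells from the cerebral cortex of C57BL/6 embryos, taken 24 hr after glial differentiation was induced and labelled as glial progenitors. There were 2 libraries of wild type cells (control) and 2 of Qk-/- cells (Qk_KO), with no further treatment named. Values are TPM per gene, the share of each gene among all transcripts, which are scaled for gene length and sum all isoforms, so the long and short dystrophins of Dmd, or the translation start forms of Aqp4, cannot be told apart. TPM keeps no read number, and depth is unknown for every value given.

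As background, AQP4 is the main water channel of the brain and lies in the end-feet of astrocytes, where it faces blood vessels and the brain surface. It is held there by the dystrophin complex: dystroglycan, the product of Dag1, spans the membrane and binds laminin and agrin outside, dystrophin or its relative utrophin joins dystroglycan to the actin cytoskeleton inside, and dystrobrevin and the syntrophins are bound to dystrophin. MLC1 and HEPACAM (GlialCAM) form a second complex at astrocyte junctions, which takes part in cell volume regulation, and loss of either causes a leukodystrophy with swelling in humans. TRPV4 is a calcium channel opened by cell swelling.

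Quaking binds RNA at a core of ACTAAC or ACTAAT, here written as DNA, often with a shorter TAAC or TAAT close by, so the 3' UTRs of the 9 genes were searched for the core. Only the transcript strand was read, in the protein-coding transcript with the longest 3' UTR of each gene (GENCODE M21, GRCm38). The shorter motif was counted only outside the core, which itself ends in it. The sites are shown because Quaking is the protein removed here, and they are matches of letters, not measured binding. The core is in capitals, with 12 bases on each side:
Dag1, chr9:108206862-108206891, minus strand: tttgcctttaacACTAACtgtactgttttt
Dag1, chr9:108204662-108204691, minus strand: cctttagtcaagACTAACtttagtcctcag
Dmd, chrX:85204899-85204928, plus strand: actgtaacatttACTAATtatttttttaaa
Hepacam, chr9:37385101-37385130, plus strand: gattttatggaaACTAACagtaattttacc
Hepacam, chr9:37386202-37386231, plus strand: aacccacaatccACTAACctccccaggtgc

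The first Dag1 site, the Dmd site and the first Hepacam site each had 1 shorter motif within those flanks, as did 17.1% of the 7319 core matches in the 3' UTRs of all genes tested. The second Dag1 site lies past the 3' end of Dag1 in the RefSeq gene model, at base 108204861, and is in the longer GENCODE transcript. Aqp4 held 2 core matches in a 3' UTR of 3955 bases, and Dtna held 1 in 3934 bases. Sntb1, Utrn, Mlc1 and Trpv4 held none in 2947, 2000, 1138 and 501 bases. A core match is common in long 3' UTRs. Of the tested genes whose 3' UTR was between 0.8 and 1.2 times as long, 68.5% held at least 1 match at the length of Aqp4, 55.0% at that of Dag1, 66.5% at that of Dmd and 40.9% at that of Hepacam. At the lengths of the genes without a match these shares were 58.8% for Sntb1, 46.0% for Utrn, 29.0% for Mlc1 and 13.2% for Trpv4. Of the 5 genes with a match, Aqp4, Dmd and Hepacam had both Qk_KO values above both control values, and the groups of Dag1 and Dtna overlapped. Of the 4 without one, Utrn and Mlc1 had both Qk_KO values below both control values, and the groups of Sntb1 and Trpv4 overlapped. Of all genes tested, 33.6% had both Qk_KO values above both control values and 27.5% had both below. The members were chosen with these values in view, so nothing is read from these counts. Whether a match goes with a direction was not tested.

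The labels were checked by Qk itself, the knocked-out gene. Its TPM was 208 and 215 in the controls against 36.1 and 43.7 in the knockouts, or 18.9% of control. Pearson's r of log2(TPM + 1) over the 13260 genes tested, those with a mean of at least 1 TPM, was 0.985 within control, 0.978 within Qk_KO and 0.951 to 0.973 across groups. No label states that replicates were separate cultures, so p-values measure the spread between these libraries, which for the controls may be partly technical. Xist was at 0.04 TPM in Qk_KO replicate 1 and between 57.6 and 62.5 TPM in the other 3 libraries. The Y-linked gene Eif2s3y was at 35.4 TPM in that library and at 0 in the others. This is the pattern of male cells in Qk_KO replicate 1 and of female cells in the others. The 2 Qk_KO libraries were therefore not made from the same cells, and sex is not balanced between the groups. This touches the X-linked gene Dmd, and the part of sex in any difference was not tested. In bulk RNA, fewer cells of a type and less RNA per cell cannot be told apart, and this holds for every level given here.

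Aqp4 had the largest log2 difference of the members. It was low in the controls, at 3.83 and 4.88 TPM, and moderate in Qk_KO, at 29.3 and 35.1 TPM. The groups were far apart: the lower Qk_KO value was 6.01 times the higher control value, and the nearest values lay 24.4 TPM apart, against 1.05 TPM between the controls and 5.84 TPM between the Qk_KO libraries. The means were 4.35 ± 0.742 and 32.2 ± 4.13 TPM (SD, n = 2 per group), a ratio of 7.40 and a log2 difference of 2.63 (SE 0.17) on the log2(TPM + 1) scale, which understates differences of low genes. Among the tested genes, 17.7% had a lower control mean than Aqp4 and 58.4% a lower Qk_KO mean. Of the 242 genes higher in Qk_KO at an adjusted p of 0.05 (limma, Benjamini-Hochberg), 4 had a larger log2 difference than Aqp4, and all of those were small RNA genes. Among all genes tested, past the threshold or not, 11 had a larger log2 difference. By the ratio of means the order differs: Folr1, with a control mean under 1 TPM, had a ratio of 12.4. Aqp4 (Entrez gene 11829) lies on chromosome 18 of GRCm38, on the minus strand.

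Across the set, Aqp4 was the only one of the 8 members tested that passed the adjusted p of 0.05 in the fit over all genes (12.5%), against 3.24% of all genes tested (1.83% higher and 1.42% lower), and no member passed in the lower direction. Because the members were chosen with this contrast known, nothing is read from that share. Trpv4 was below the minimum level and was not tested. The other 8 genes had a mean of at least 3.20 TPM in both groups, so none was kept through 1 group alone. Both Qk_KO values lay above both control values for Aqp4, Dmd and Hepacam and below them for Utrn and Mlc1, that is for 5 of 8 (62.5%), against 61.1% of all genes tested (33.6% higher and 27.5% lower). The median log2 difference of the 8 was 0.03, beside 0.04 over all genes tested. Aqp4 did not pass without control replicate 1, without control replicate 2 or with no filter on low genes, and its log2 difference was between 2.49 and 2.86 over all settings.

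**Figure D1:**
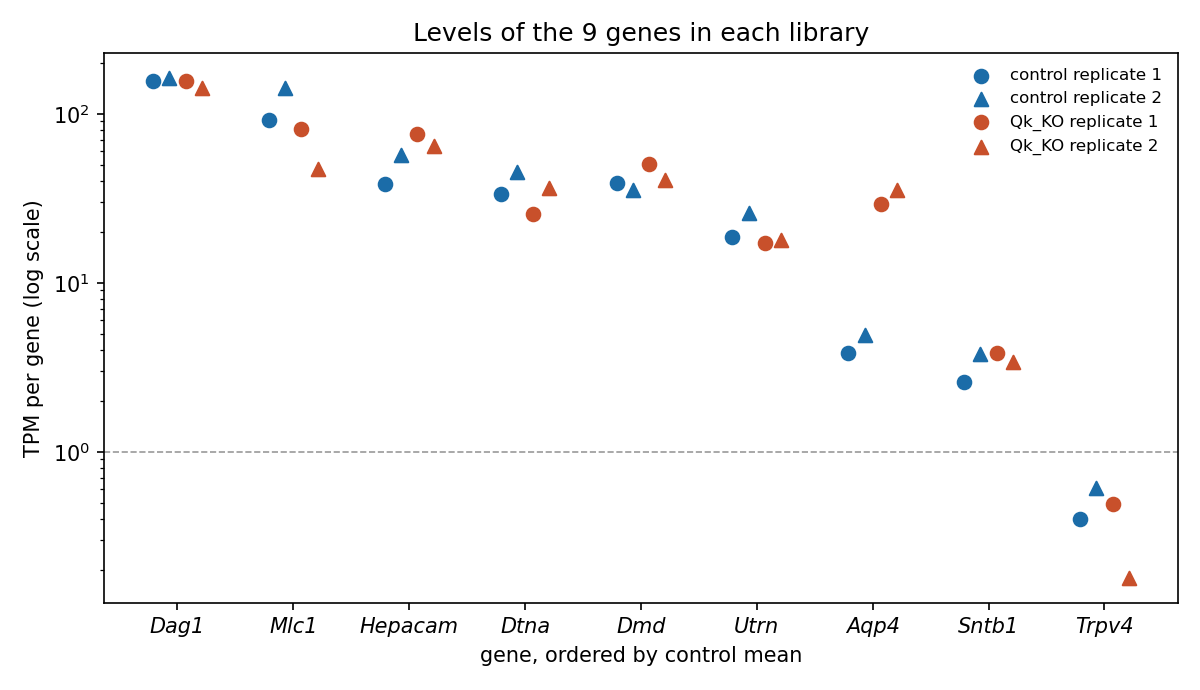
TPM of each of the 9 genes (log axis) in each library, 1 point per library, genes ordered by control mean and a dashed line at 1 TPM. Aqp4 moves from 3.83 and 4.88 TPM in control to 29.3 and 35.1 TPM in Qk_KO, while the points of Dag1 lie between 142 and 163 TPM.

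**Figure D2:**
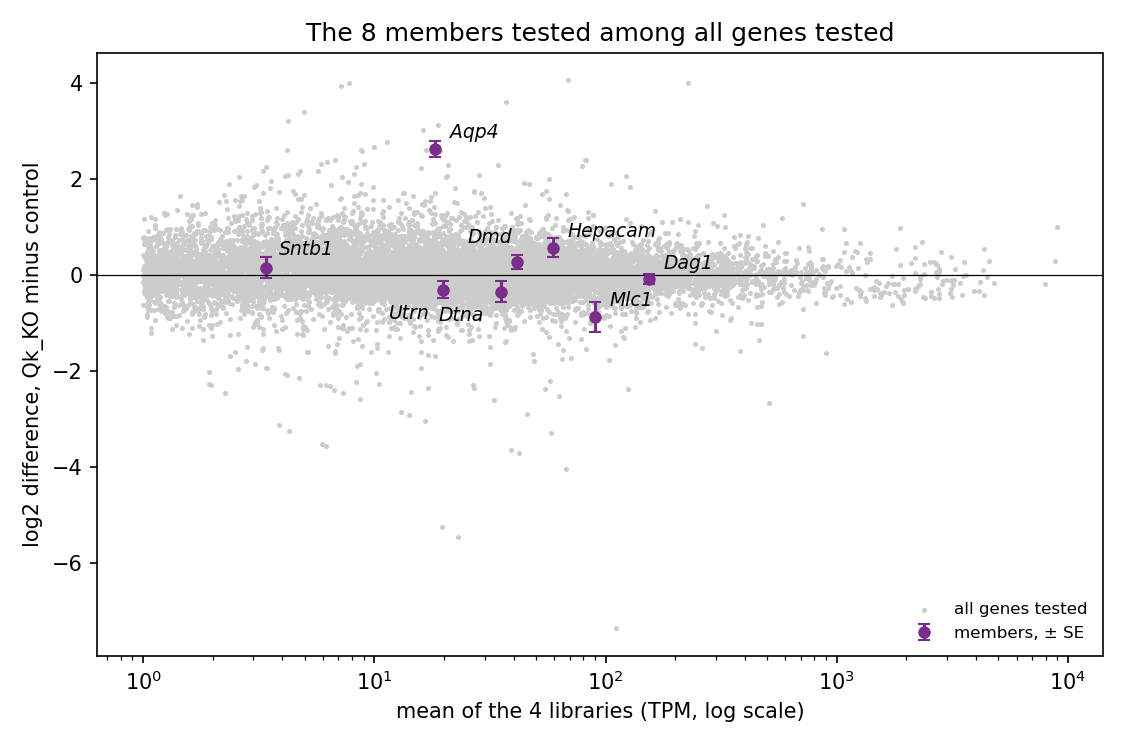
Log2 difference, Qk_KO minus control, against the mean TPM of the 4 libraries (log axis) for the 13260 genes tested (grey) and the 8 members tested (purple, bars are SE). Aqp4 stands at 2.63, and the other 7 members lie between -0.87 and 0.57.

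Dag1, the gene of dystroglycan, was the most abundant member in both groups and the steadiest. It measured 156 and 163 TPM in control and 157 and 142 TPM in Qk_KO. The groups overlapped, and the log2 difference was -0.09 (SE 0.10). Its level was above that of 91.5% of the genes tested.

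Dmd, which encodes the dystrophins, was at 39.1 and 35.6 TPM in control and at 50.4 and 40.5 TPM in Qk_KO. The Qk_KO values were both higher, but the nearest values of the groups were 1.36 TPM apart while the Qk_KO libraries differed by 9.93 TPM, and the higher of them was the library with Xist at 0.04 TPM. The log2 difference was 0.27 (SE 0.14). The part of this difference in Xist and Eif2s3y in the Dmd values was not tested. Utrn, the gene of utrophin, was at 18.6 and 25.8 TPM in control and at 17.1 and 17.9 TPM in Qk_KO. Both Qk_KO values were lower, by 0.749 TPM at the nearest, with 7.15 TPM between the controls and a log2 difference of -0.31 (SE 0.18). Within each library Dmd exceeded Utrn, by 2.10 and 1.38 times in control and 2.94 and 2.27 times in Qk_KO.

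Dtna, the gene of alpha-dystrobrevin, the scaffold that carries syntrophins, was at 33.6 and 45.3 TPM in control and at 25.4 and 36.5 TPM in Qk_KO. These values overlapped between the groups and differed by more than 11 TPM within each, with a log2 difference of -0.35 (SE 0.22). Sntb1, the gene of beta-1-syntrophin, was low in all libraries, at 2.59 and 3.81 TPM in control and 3.82 and 3.39 TPM in Qk_KO. Its groups overlapped and its log2 difference was 0.15 (SE 0.22).

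Mlc1 and Hepacam, whose proteins form 1 complex, stood on opposite sides of control. Mlc1 was at 91.4 and 142 TPM in control and at 80.7 and 47.3 TPM in Qk_KO. The Qk_KO values were both lower, but the groups were 10.7 TPM apart at the nearest while the controls differed by 50.5 TPM and the Qk_KO libraries by 33.5 TPM, so the libraries of a group differed by more than the gap between groups. The means were 117 ± 35.7 and 64.0 ± 23.7 TPM (SD, n = 2), a log2 difference of -0.87 (SE 0.31). Hepacam was at 38.6 and 56.8 TPM in control and at 76.1 and 64.8 TPM in Qk_KO. Both Qk_KO values were higher, by 7.98 TPM at the nearest, with 18.3 TPM between the controls and a log2 difference of 0.57 (SE 0.20). Neither Mlc1 nor Hepacam passed the threshold of the fit in any setting tried.

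The ratio of Mlc1 to Hepacam within a library cannot be altered by a single scaling factor per library. In the controls it was steadier between replicates than either gene, but in Qk_KO it was less steady than Hepacam. It was 2.37 in control replicate 1 and 2.50 in control replicate 2, against 1.06 and 0.729 in Qk_KO replicates 1 and 2. The ratio was thus above 2 in both controls, and in Qk_KO near parity in replicate 1 and below it in replicate 2. It was picked after the values were seen and has no test. The ratios of Aqp4 to its partners were apart between the groups too. With Aqp4 itself far apart and its partners changing less, these ratios and its share of the sum restate the Aqp4 values and are no separate result. Aqp4 was 0.0245 and 0.0300 times the level of Dag1 in control and 0.187 and 0.247 times in Qk_KO. It was 0.114 and 0.108 times the level of Dtna in control and 1.15 and 0.963 times in Qk_KO. Aqp4 made up 0.997% and 1.02% of the summed TPM of the 9 genes in control and 6.66% and 9.06% in Qk_KO, while the other 8 genes summed to 380 and 472 TPM in control and 411 and 353 TPM in Qk_KO, ranges that overlapped.

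**Figure D3:**
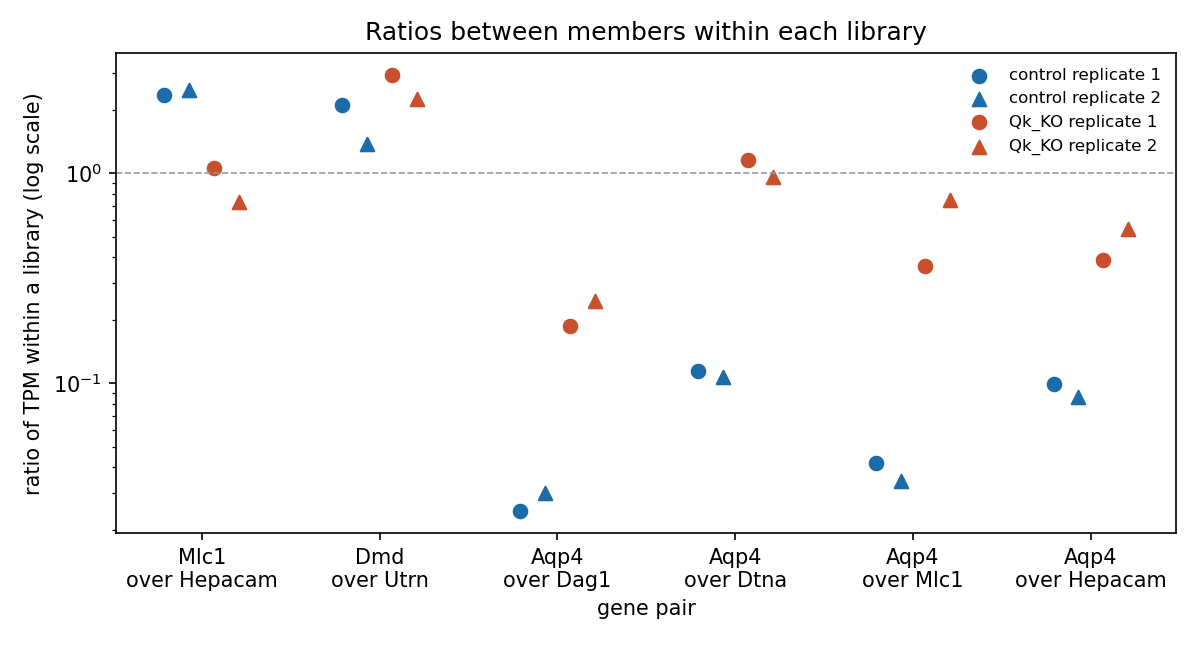
Ratio of the TPM of 2 members within each library (log axis), 1 point per library and a dashed line at equal levels. Mlc1 over Hepacam is 2.37 and 2.50 in control and 1.06 and 0.729 in Qk_KO, and each ratio of Aqp4 to a partner is higher in both Qk_KO libraries than in both controls.

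Trpv4 was below the minimum mean of 1 TPM, at 0.40 and 0.61 TPM in control and 0.49 and 0.18 TPM in Qk_KO. Its groups overlapped, and no difference was tested at these levels.

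By level in control the order was Dag1, Mlc1, Hepacam, Dtna, Dmd, Utrn, Aqp4, Sntb1 and Trpv4. Hepacam and Dtna overlapped, as did Dtna and Dmd, and the other neighbours were apart in the 2 control libraries. In Qk_KO the order was Dag1, Hepacam, Mlc1, Dmd, Aqp4, Dtna, Utrn, Sntb1 and Trpv4. There Hepacam and Mlc1, Mlc1 and Dmd, and Aqp4 and Dtna overlapped. Aqp4 thus passed from below Utrn to the range of Dtna.

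Among 78 further genes of the same machinery, in 6 lists drawn from general knowledge, 52 were tested, of which 1 rose and 3 fell in Qk_KO (7.69%, against 3.24% of all genes tested). Their median log2 difference was -0.03. The groups were apart for 13 genes in the higher and 19 in the lower direction, 61.5% against 61.1% of all genes tested. The lists were chosen with earlier results of these data known, so nothing is read from these shares or from those of a single list. Of the 4 calls, none remained when either control or Qk_KO replicate 1 was left out, without limma's mean-variance trend or with no filter, while 1 remained and Lama5 was added without Qk_KO replicate 2. Neither the Sspn call nor the Cav1 call remained in any of these settings.

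In the list of other dystrophin-associated proteins 9 of 14 genes were tested, 1 rose, 1 fell and 7 did not pass, with a median of -0.22. The share called was 22.2%, against 3.24% of all genes tested. Sspn, which encodes the tetraspan protein sarcospan, fell from 10.2 and 11.6 TPM to 3.93 and 5.26 TPM, a log2 difference of -1.10 (SE 0.18; limma, Benjamini-Hochberg adjusted p = 0.0470). Beside the log2 difference of 0.15 of Sntb1, its relatives Sntb2, Sntg1 and Sntg2 stood at -0.42, -0.37 and 0.76, the last at 1.19 ± 0.276 and 2.70 ± 0.255 TPM (SD, n = 2; limma, Benjamini-Hochberg adjusted p = 0.101). Sntb2, Sntg1 and Sntg2 were named outside the naming rule and were low, with means of 2.05, 2.26 and 1.94 TPM over the 4 libraries. Sntg1 was at 2.60 and 2.51 TPM in control and 0.86 and 3.06 TPM in Qk_KO. Whether the log2 differences of these genes differ from each other was not tested.

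The enzymes that build the laminin-binding sugar of dystroglycan showed no call. All 16 were tested, 0 rose, 0 fell and 16 did not pass in limma, with a median of -0.11 and log2 differences between -0.53 and 0.25. The groups were apart for 7 genes (43.8%), all lower, against 61.1% of all genes tested (33.6% higher and 27.5% lower). Pomgnt1, an O-mannose glycosyltransferase, was at 135 and 140 TPM in control and 99.7 and 112 TPM in Qk_KO (limma, Benjamini-Hochberg adjusted p = 0.0889). Dpm3, a subunit of the mannose donor synthase, was at 116 and 121 TPM in control and 93.0 and 105 TPM in Qk_KO.

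Of the dystroglycan ligands 10 of 13 were tested, 0 rose, 0 fell and 10 did not pass, with a median of 0.21. Agrn, the gene of agrin, was at 141 and 114 TPM in control and 168 and 150.03 TPM in Qk_KO. Lamc1, the laminin gamma-1 chain, was at 112 and 129 TPM in control and 149.5 and 106 TPM in Qk_KO. Outside the naming rule and picked after its values were seen, Lama5, the laminin alpha-5 chain, was at 30.3 and 27.0 TPM in control and 79.9 and 51.5 TPM in Qk_KO (limma, Benjamini-Hochberg adjusted p = 0.0528).

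Aqp4 was 1 of 2 aquaporin genes above the minimum level. Of the other 11 on the list only Aqp11, an intracellular aquaporin, was tested, at 11.5 and 5.55 TPM in control and 12.7 and 9.92 TPM in Qk_KO, with overlapping groups. Aqp5 was next, between 0.46 and 0.77 TPM in the 4 libraries. Aqp1, the water channel of the choroid plexus, stood at 0.29 to 0.47 TPM. Of the other TRPV channels only Trpv2 was tested, at 2.43 and 2.69 TPM in control and 1.65 and 3.18 TPM in Qk_KO, and Trpv3 was between 0.12 and 0.42 TPM.

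Among partners of MLC1 and HEPACAM and genes of astrocyte volume regulation, 15 of 19 were tested, 0 rose, 2 fell and 13 did not pass, with a median of 0.00. The share called was 13.3%, against 3.24% of all genes tested. Cav1, the caveolin-1 gene, fell from 461 and 676 TPM to 148 and 235 TPM, a log2 difference of -1.58 (SE 0.27; limma, Benjamini-Hochberg adjusted p = 0.0483). The Cav1 call was also lost with robust settings of limma. Clcn2, the chloride channel gene whose product HEPACAM binds, was at 22.6 and 20.7 TPM in control and 28.5 and 25.5 TPM in Qk_KO. Kcnj10, the potassium channel that shares astrocyte end-feet with AQP4, was at 79.4 and 71.1 TPM in control and 48.7 and 53.3 TPM in Qk_KO (limma, Benjamini-Hochberg adjusted p = 0.0553). Clcn2 and Kcnj10 were named after their values were seen.

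**Figure D4:**
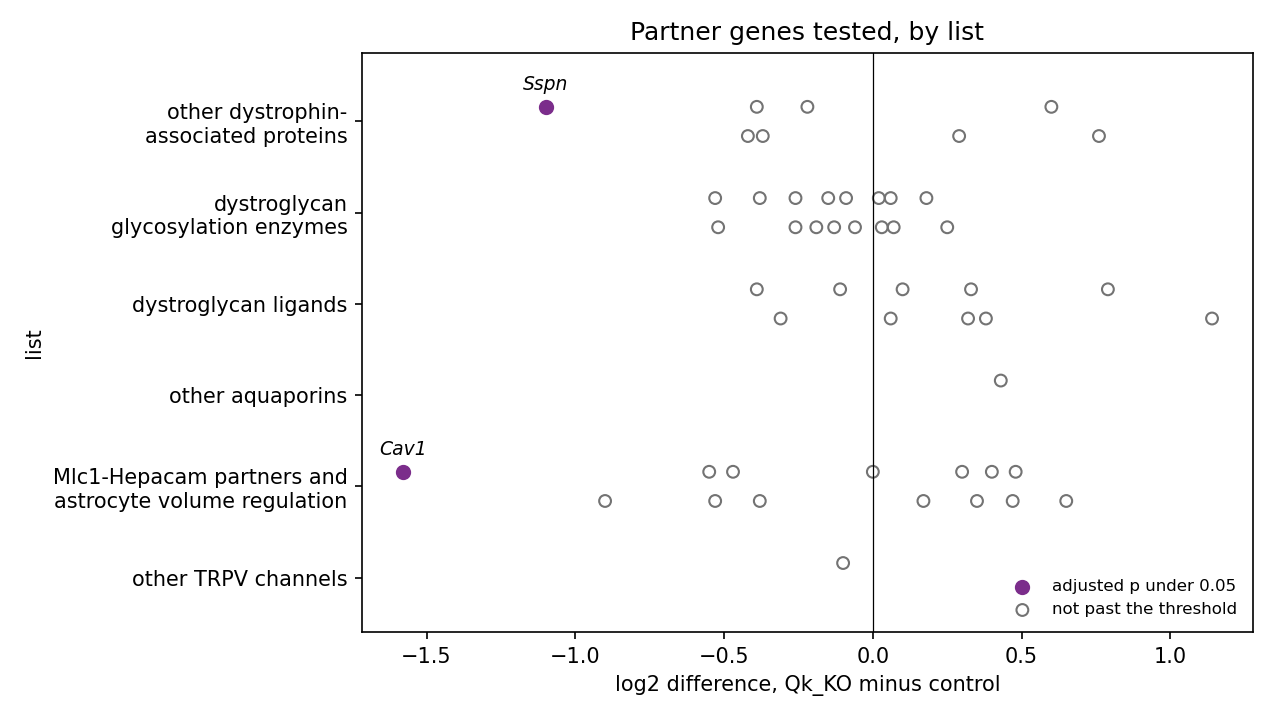
Log2 difference, Qk_KO minus control, of 50 of the 52 partner genes tested, 1 point per gene in rows by list, filled where the adjusted p is under 0.05 (limma, Benjamini-Hochberg). Sspn at -1.10 and Cav1 at -1.58 are the filled points, both on the lower side.

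The profile of Aqp4 over the 4 libraries was compared with those of 12202 other named genes tested by the distance between log2(TPM + 1) values after each gene's mean was taken off. The nearest was Rcan2, an inhibitor of calcineurin, at a distance of 0.310, with 4.50 and 4.79 TPM in control and 26.2 and 41.2 TPM in Qk_KO. Cidea, a lipid droplet gene, followed at 0.429, Kcnk1, a potassium channel gene, at 0.568, Fndc1 at 0.603 and Iqsec3 at 0.619. Iqsec3 was at 0.56 and 0.39 TPM in control and 4.37 and 8.25 TPM in Qk_KO. It was thus kept among the genes tested through the Qk_KO libraries alone. The likeness of these 5 genes to Aqp4 rests on 4 libraries and mainly on the size of the group difference. No other member was close: Hepacam ranked 1042 and Mlc1 12014 of the 12202.

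**Figure D5:**
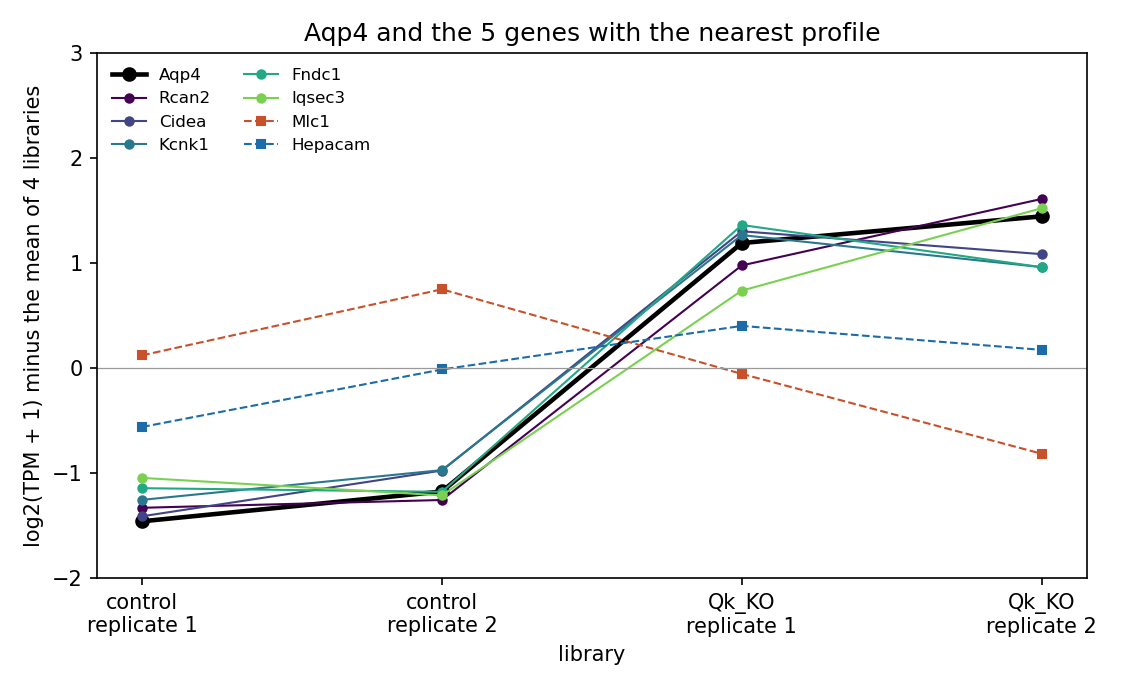
Centred log2(TPM + 1) of Aqp4 (black), its 5 nearest genes (solid) and Mlc1 and Hepacam (dashed) in each library; lines only join the points of a gene. Aqp4 and its nearest genes are below 0 in both controls and above 0 in both Qk_KO libraries, and Mlc1 runs the other way.

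Markers of the cell types that could carry these transcripts were summed per library. Of the astrocyte list 9 of 10 genes had a mean of at least 1 TPM, none was at 0 throughout, and the sum was 787 to 903 TPM in control and 592 to 660 TPM in Qk_KO. That sum was carried by Slc1a3, a glutamate transporter gene, which fell from 338 and 435 TPM to 117 and 150.04 TPM (limma, Benjamini-Hochberg adjusted p = 0.0324), and without it the sums overlapped, at 449 and 468 TPM in control and 544 and 442 TPM in Qk_KO. Of the other 8 astrocyte genes tested none passed. S100b, Fgfr3 and Gja1 had both Qk_KO values below both control values, with log2 differences of -2.31, -0.74 and -0.90, and Aldh1l1 had both above, at 52.0 and 32.9 TPM in control and 229 and 108 TPM in Qk_KO. Gfap, Aldoc, Slc1a2 and Sox9 overlapped between the groups. The list for neural stem cells and radial glia had 8 of 8 genes above that level and summed to 5724 to 5869 TPM in control and 6020.3 to 6241 TPM in Qk_KO, so markers of the labelled neural stem cells were present, and Pax6 passed, at 24.0 and 17.9 TPM in control and 48.9 and 45.8 TPM in Qk_KO (limma, Benjamini-Hochberg adjusted p = 0.0423). The oligodendrocyte lineage list had 7 of 8 above it, with Mog at 0 in all libraries, and sums of 967 to 1169 TPM in control and 895 to 1091 TPM in Qk_KO. In it the precursor marker Pdgfra fell from 53.1 and 35.8 TPM to 5.37 and 12.1 TPM (limma, Benjamini-Hochberg adjusted p = 0.0461). The neuron list, with 7 of 7, summed to 305 to 479 TPM in control and 621 to 709 TPM in Qk_KO, and without its most abundant gene Tubb3 the sums overlapped. Its 1 call was Snap25, a synaptic gene, at 18.2 and 12.8 TPM in control and 31.6 and 37.5 TPM in Qk_KO (limma, Benjamini-Hochberg adjusted p = 0.0481). None of the calls of Slc1a3, Pax6, Pdgfra and Snap25 remained with no filter, without limma's trend or without either control or Qk_KO replicate 1. Those of Pax6 and Snap25 were also lost without Qk_KO replicate 2, and that of Snap25 after quantile scaling. The part of these cell types in the levels of Aqp4 and its partners was not tested.

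Ependymal cells, which also carry AQP4, and the choroid plexus shared a list in which 3 of 8 genes had a mean of at least 1 TPM. Its sum was 17.8 to 21.3 TPM in control and 21.7 to 34.3 TPM in Qk_KO. Foxj1, the factor of ciliated ependyma, overlapped between the groups at 15.3 to 19.2 TPM, and Tmem212 was at 0 in all libraries. Folr1 was at 0.33 and 0.44 TPM in control and 5.65 and 3.93 TPM in Qk_KO, and Otx2 at 0.61 and 0.24 TPM in control and 8.71 and 1 TPM in Qk_KO. Both had a control mean under 1 TPM and were kept through the Qk_KO libraries alone, so no test of them is given. Markers of other cells known for dystrophin complexes were mostly low, but Acta2 and Tagln of the muscle list were high. Endothelial genes had 2 of 7 above 1 TPM and sums of 5.28 to 7.20 TPM over all libraries. The pericyte, fibroblast and meninges list had 3 of 8 and sums of 33.8 to 41.1 TPM in control and 29.0 to 30.5 TPM in Qk_KO. In the muscle list the skeletal genes Myod1, Myog, Acta1 and Myh3 were between 0 and 0.56 TPM, while Acta2, which other cells also express, was at 1289 and 1129.5 TPM in control and 3484 and 1604 TPM in Qk_KO. Tagln was at 395 and 419 TPM in control and 541 and 226 TPM in Qk_KO. Des was between 0.61 and 4.39 TPM and Myh11 between 0.13 and 0.21 TPM. The muscle list, with 3 of 8 genes above 1 TPM, summed to 1554 to 1687 TPM in control and 1832 to 4027 TPM in Qk_KO. Without Acta2 its sums overlapped. Microglia and macrophage genes, 4 of 8 above 1 TPM, summed to 19.5 to 23.2 TPM in control and 9.30 to 11.6 TPM in Qk_KO. None of these parts was tested.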

How the data were processed

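Poly(A)-selected RNA of 2 control and 2 Qk_KO libraries was read on an Ion Proton instrument, as the labels' protocols state. Per the file headers, the authors gave TPM per gene in a table for each library. The submitters' processing notes list STAR 2.4.1d, RSEM 1.3.0 and the builds mm10 and GRCm38.p4 of the mouse genome. Annotation, strandedness and number of reads are details not given in the sources used here. Without the strand setting, overlapping or antisense genes cannot be told apart.

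Values were taken as log2(TPM + 1). A mean of 1 TPM or more kept 13260 of 35857 genes, and Qk_KO minus control was fitted with limma 3.58.1 in R 4.3.3 (lmFit, eBayes with a mean-variance trend, 5.57 degrees of freedom), as a two-sided test at a threshold of 0.05 after Benjamini-Hochberg adjustment over the genes kept. An exact permutation test of 2 against 2 libraries cannot go below 0.333, so the p-values given rely on the variance limma shares among genes. The fit was also run on data simulated from its own fitted variances, which cannot check that sharing of variance. Errors are SD over the 2 libraries of a group or limma's SE.

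The members, lists and tests were chosen with earlier results of these data known. Lists held 159 entries, all matched by symbol or RefSeq synonym, and Gja1 and Gjb6 are in 2 of them. The rule for named genes took all members, Qk, every partner gene past the threshold and otherwise the highest by mean TPM up to 2 per list, and the 5 genes nearest to Aqp4. Of the 4 partner genes past the threshold, 2 are in the counts but are not reported here by name or plotted. Each result was also computed with other pseudocounts (0.1, 0.5), without the filter, with a minimum mean of 5 TPM, after median-ratio or quantile scaling, with limma's trend off or its robust option on, with replicate number as a block, and without each library in turn. A fit without small RNA genes was added once the data had been seen. No 3' UTR sequence of Aqp4 or Dtna is printed. Plots were made in Python 3.11.15 with matplotlib 3.10.9.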

Additional observations from a re-analysis of the deposited data

How the results depend on the processing

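The number of members past the threshold was 1 in the reported fit and 0 with no filter on low genes, where the partner lists and all 21835 genes fitted also had 0 in limma and 4327 genes had an unadjusted p under 0.05. All genes gave 430 calls as reported, 649 at a mean of at least 5 TPM, 41 without limma's mean-variance trend, where the partner lists had 0, and 799 in a fit without small RNA genes, which was added once the data had been seen. Leaving out 1 library gave 0 to 1 members, 0 to 2 partner genes and 4 to 148 of all genes past the threshold, and a median log2 difference of the members between -0.09 and 0.09. The member and all partner calls were lost without control replicate 1 and without control replicate 2. With 1 library left in a group, that library is assumed to vary like the others. No member changed sign except Sntb1, which ranged from -0.06 without control replicate 1 to 0.36 without control replicate 2. The cause of these changes was not tested. With the replicate number as a block, 1278 of all genes passed, 1 member and 6 partner genes. The labels do not say that a number marks shared material, and deviations of same-numbered libraries correlated at 0.114 across genes, so the numbers were not taken as pairs. Scaling moved the median of all genes from 0.04 to 0.01 or -0.01 (log2).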

Other observations

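The nearest protein-coding genes on either side of Aqp4 on chromosome 18 were looked at after its values were seen. Kctd1, which encodes a BTB domain protein, was at 31.8 and 26.0 TPM in control and at 50.8 and 58.0 TPM in Qk_KO, a log2 difference of 0.89 (SE 0.14; limma, Benjamini-Hochberg adjusted p = 0.0434). Chst9, a sulfotransferase gene on the other side, was between 0 and 0.07 TPM in all 4 libraries. Kctd1 lay 237948 bases from Aqp4 and Chst9 40791 bases. Of the neighbours of the other members that were tested, the adjusted p in the same fit was at least 0.0717, for Gltp beside Trpv4, at 38.3 and 43.0 TPM in control and 29.6 and 28.3 TPM in Qk_KO. Whether a difference of a neighbour bears on that of a member was not tested.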
